A study of Mus musculus with 36 samples.

Results

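The Zfp900-series zinc finger genes of the mouse were taken as every gene of the count table whose symbol runs from Zfp900 to Zfp999, which gave 64 of 54842 genes, numbered between Zfp930 and Zfp995. Of these, 56 had enough counts to be tested. The 36 RNA-seq libraries came from mouse embryonic stem cells grown without serum in 2i medium, that is, with a MEK inhibitor, a GSK3β inhibitor and LIF. One line, as the 2 kinds of cells are called here, had been transfected with LiTEC, a light-responsive targeting system, and the other was wild type (WT). Both had been kept in doxycycline (2 µg/ml) for 2 days. Cells were placed on a blue LED panel for 30 min (lit) or were not (dark), and RNA was taken 0, 1 or 4 h later. This gave 12 groups of 3 libraries: lit LiTEC, dark LiTEC, lit WT and dark WT cells, each at 0, 1 and 4 h. Replicate 1 of every group belonged to batch 1, and replicates 2 and 3 belonged to batch 2. The labels do not say that LiTEC cells were a clone, which promoter drives the construct, or whether the 3 replicates of a group were grown separately, so the spread that the p-values rest on may be technical in part.

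Most genes with such symbols encode proteins with a KRAB box at one end and an array of C2H2 zinc fingers at the other. The fingers bind DNA, often within retrotransposons or their relics, and the KRAB box recruits TRIM28 (KAP1), which brings in the histone methyltransferase SETDB1 and other repressors. In mouse embryonic stem cells many KRAB zinc finger genes sit in large, recently duplicated clusters, and clusters on chromosomes 2 and 4 are known for silencing endogenous retroviruses. A role that is known for a single member is that of Zfp932, a repressor of endogenous retroviruses, and for most other members no individual function is given here.

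By the GENCODE M21 annotation of GRCm38, 63 of the 64 genes were protein coding and Zfp939 was a transcribed pseudogene. A letter pattern of the KRAB A box was found in the translations of 58 of them, against 1.2346% of 21951 protein-coding genes, and at least 1 finger of the C2H2 pattern was found in 60. The median gene had 11 fingers and Zfp974 had the most, with 21. The genes were spread over 12 chromosomes, with 16 on chromosome 4, 13 on chromosome 17, 11 on chromosome 2 and 9 on chromosome 7. The 16 genes on chromosome 4 lay within chr4:145510759-147848366, a window of 2.338 Mb from Zfp990 to Zfp933 that holds 72 other genes of the table.

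The members are not independent readouts, because many are near copies. More than 20% of the distinct 50-base stretches in the exons of 32 members occurred in another gene, and for 19 members the share was over 50%. On chromosome 4 the share was at most 20% for Zfp933, Zfp982 and Zfp985 alone, and it reached 89.0% for Zfp987. How reads that match several genes were counted is not given in the sources used here, so values of the shared members are uncertain as to which copy they count. Of the genes described in most detail below, Zfp941 (4.75%), Zfp948 (0.116%), Zfp949 (0.00%), Zfp951 (1.43%) and Zfp953 (5.21%) shared little, and Zfp934 (29.5%), Zfp981 (40.0%), Zfp990 (29.1%) and Zfp980 (71.3%) shared more.

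RefSeq start sites on GRCm38.p6 gave a promoter window, from 250 bases before to 50 after the start, for 54 of the 64 genes, 10 of them on chromosome 4. The longest run of letters shared by the windows of at least 8 of these 10 genes was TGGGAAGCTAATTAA, searched on both strands. It was, by that choice, in the windows of 8 of these 10 members (Zfp979, Zfp980, Zfp981, Zfp982, Zfp984, Zfp985, Zfp987 and Zfp988). It was found for 0 of the 44 members on other chromosomes and for 12 of all 27025 genes with a window (0.044%). The remaining 4 genes were Gm13212, Rex2, Zfp534 and Zfp600, which lie in the same stretch of chromosome 4. Windows of near copies share most of their letters, so these 12 are not independent matches. Zfp980, Zfp982 and Zfp985 are shown because they fell between 0 and 4 h in dark cells; the capitals mark the 15 letters. Zfp980 is at chr4:145670447-145670746, Zfp982 at chr4:147492167-147492466 and Zfp985 at chr4:147553027-147553326, all on the plus strand and printed 5′ to 3′.
Zfp980: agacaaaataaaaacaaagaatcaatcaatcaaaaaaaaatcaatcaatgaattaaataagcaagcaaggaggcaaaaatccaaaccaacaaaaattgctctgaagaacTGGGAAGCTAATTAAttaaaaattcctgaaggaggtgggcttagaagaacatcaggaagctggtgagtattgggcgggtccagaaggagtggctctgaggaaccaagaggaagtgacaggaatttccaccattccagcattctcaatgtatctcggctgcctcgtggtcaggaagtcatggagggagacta
Zfp982: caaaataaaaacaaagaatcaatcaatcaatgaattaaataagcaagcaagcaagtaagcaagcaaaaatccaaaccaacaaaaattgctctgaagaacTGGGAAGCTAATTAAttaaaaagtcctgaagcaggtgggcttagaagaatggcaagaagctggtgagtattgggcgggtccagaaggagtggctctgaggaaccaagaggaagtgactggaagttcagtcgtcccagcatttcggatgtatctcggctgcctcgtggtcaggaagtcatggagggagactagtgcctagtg
Zfp985: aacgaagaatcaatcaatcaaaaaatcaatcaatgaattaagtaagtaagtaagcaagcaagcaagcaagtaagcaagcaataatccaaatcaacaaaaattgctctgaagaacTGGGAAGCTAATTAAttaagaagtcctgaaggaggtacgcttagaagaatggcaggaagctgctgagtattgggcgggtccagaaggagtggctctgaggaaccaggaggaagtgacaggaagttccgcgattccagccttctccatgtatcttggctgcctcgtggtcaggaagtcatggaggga

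The letters CCAAT, on either strand, occurred for 41 of the 54 genes with a window (75.9%), against 41.058% of all genes with a window. TATAAA occurred for 0 of 54, against 15.667%. GGGCGG was in 19 of 54 (35.2%), against 38.202%, with 7 of the 10 on chromosome 4. GAANNTTC, a pair of inverted heat shock units, was in 2 of 54 (3.704%), against 9.036%. Zfp951 and Zfp941 are shown because they had the largest line difference and the largest light effect among the members; the capitals mark CCAAT or, on the opposite strand, ATTGG. Zfp951 is at chr5:104860019-104860318 and Zfp941 at chr7:140822129-140822428, both printed 5′ to 3′ from the minus strand. These matches describe the letters only.
Zfp951: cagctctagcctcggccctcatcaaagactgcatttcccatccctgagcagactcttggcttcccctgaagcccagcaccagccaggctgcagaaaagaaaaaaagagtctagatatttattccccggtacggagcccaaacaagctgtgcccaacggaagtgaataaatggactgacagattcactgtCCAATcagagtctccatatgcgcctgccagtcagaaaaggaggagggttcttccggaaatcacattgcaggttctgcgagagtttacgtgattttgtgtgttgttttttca
Zfp941: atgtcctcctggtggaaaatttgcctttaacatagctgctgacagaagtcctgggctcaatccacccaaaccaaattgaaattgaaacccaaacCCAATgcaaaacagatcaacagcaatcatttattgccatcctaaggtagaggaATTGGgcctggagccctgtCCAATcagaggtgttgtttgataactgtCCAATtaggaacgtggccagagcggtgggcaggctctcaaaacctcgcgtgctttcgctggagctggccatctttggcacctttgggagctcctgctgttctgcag

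Levels are given in CPM, the count divided by the TMM-scaled library size, and are compared between genes only per kilobase (kb) of exon. The highest level was that of Zfp990 on chromosome 4, at 137.6 CPM per kb (mean over the 36 libraries 481.2 CPM), followed by Zfp978 at 61.9, Zfp979 at 47.5, Zfp985 at 41.8 and Zfp936 on chromosome 7 at 39.7 CPM per kb. Of the 10 highest members per kb, 9 were on chromosome 4. The median over the tested members was 28.5 CPM per kb on chromosome 4 (lowest Zfp993, 1.69) and 4.31 CPM per kb on the other chromosomes. The 5 highest means in CPM were those of Zfp990, Zfp979 (195.4), Zfp936 (129.8), Zfp961 (120.8) and Zfp985 (120.1).

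The 8 members that were not tested were Zfp935, with 0 counts in every library, and Zfp957, Zfp965, Zfp966, Zfp967, Zfp968, Zfp969 and Zfp973, with at most 12 counts in any library. Zfp957 shared 0.229% of its 50-base stretches with other genes, while the other 7 shared between 84.7% and 100.0%.

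Library totals ran from 11132970 to 21842256 counts, of which the 64 members held 0.116% to 0.288%. Gm26917, an RNA gene that overlaps ribosomal RNA, took 16.3% of the counts of the lit LiTEC library of replicate 1 at 0 h and 26.1% of those of the dark WT library of replicate 3 at 4 h, against a median of 9.87%. The same libraries had the lowest summed member levels of their groups, at 2022.9 CPM for the lit LiTEC library (group mean 2300.1 ± 242.8 CPM, SD, n = 3) and 1450.7 CPM for the dark WT library (group mean 1900.7 ± 390.9 CPM, SD, n = 3). Counts and some of the values that rest on these 2 libraries are given with and without them, and other values with them only. The dark WT library gave the lowest dark WT values, cited below, of Zfp951, Zfp934, Zfp981, Zfp948, Zfp953, Zfp977, Zfp936 and Zfp932. The naive embryonic stem cell markers summed to between 3060 and 4230 CPM in dark LiTEC libraries and between 2900 and 4380 CPM in dark WT libraries. Of the 12 genes, 2 were called higher and 8 lower in dark LiTEC cells by the test used below, against 23.9% and 23.7% of all tested genes.

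Did the LiTEC cells differ from WT cells without light? Among the dark libraries (9 against 9), 21 members were higher and 6 lower in LiTEC cells, as called by edgeR's quasi-likelihood test at a Benjamini-Hochberg adjusted p below 0.05 over 18193 genes. That is 48.2% of the 56 tested members, against 47.6% of all tested genes, so the share called was near the background. Over all genes 23.9% were higher and 23.7% lower, and the median log2 fold change was 0.08 in the members and 0.00 over all genes. Without the dark WT library with the high Gm26917 share, the counts were 19 higher and 14 lower (58.9%, against 47.0% of all genes), so that library moved the lower count by more than 1.5 times. Of the 21 higher members, 10 were on chromosome 4 and 6 on chromosome 7. The plot of levels and line differences shows every tested member.

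**Figure D1:**
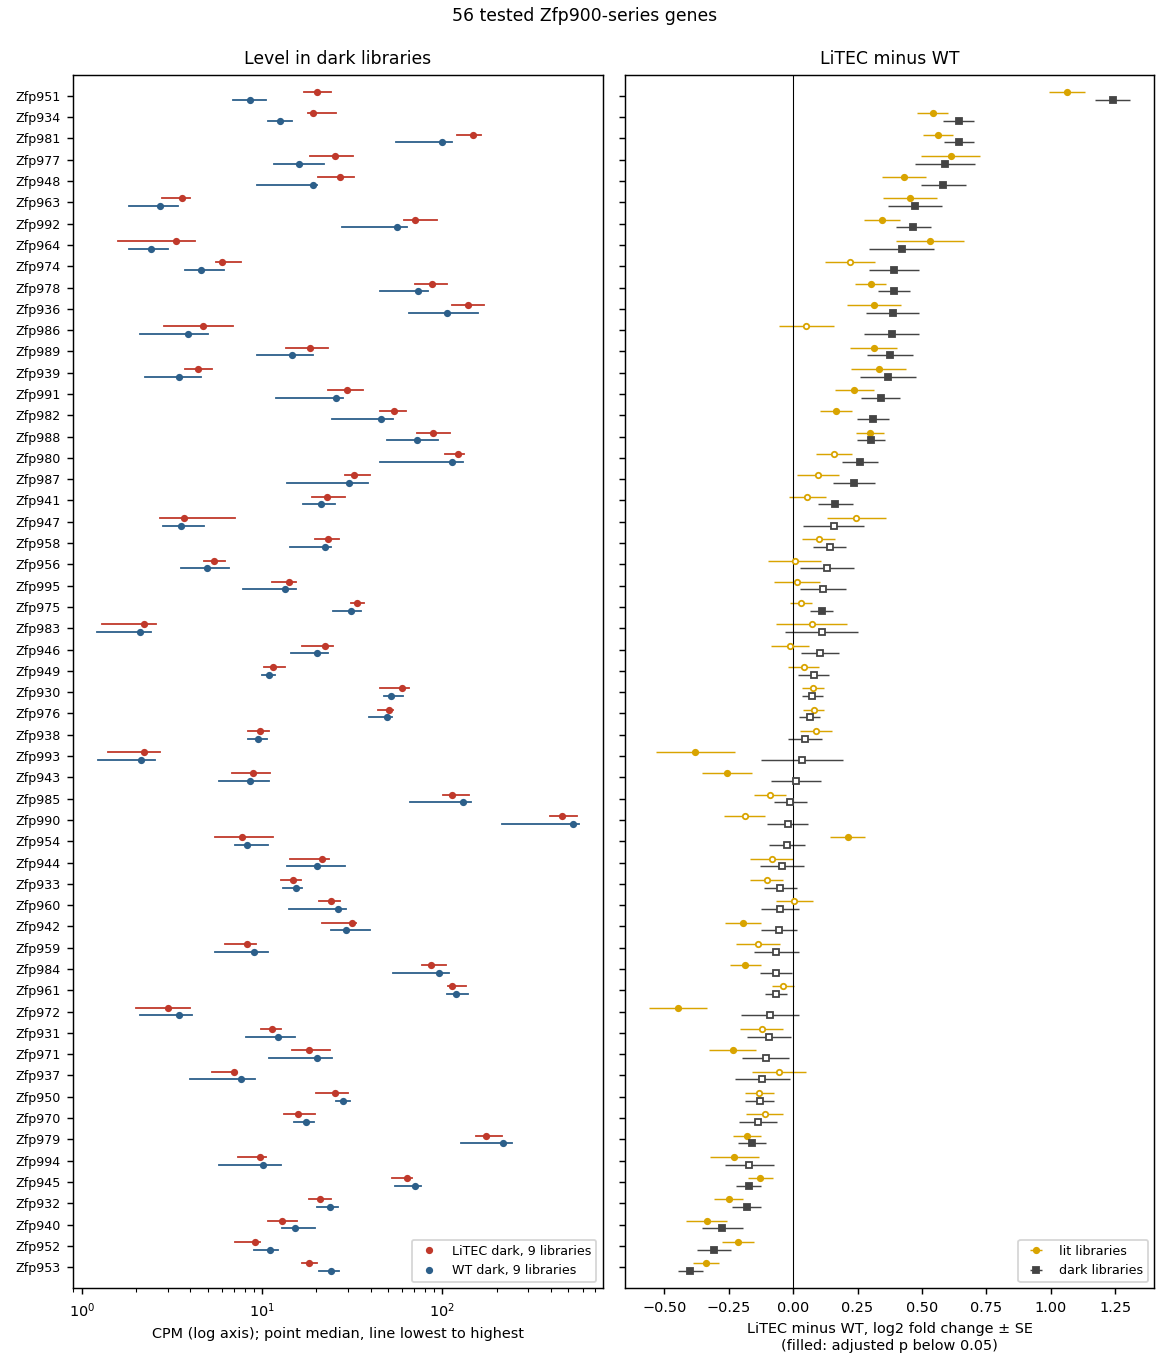
The 56 tested members, ordered by the dark LiTEC minus WT log2 fold change. Left, CPM on a log axis in dark LiTEC and dark WT libraries (9 each; point median, line lowest to highest); right, LiTEC minus WT log2 fold change ± SE in lit and in dark libraries, filled where the adjusted p was below 0.05. Zfp951 stands at the top with 1.24 in dark and 1.06 in lit libraries, and Zfp953 at the bottom with -0.40 and -0.34.

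Zfp951, on chromosome 5 (chr5:104813169-104860070), had the largest difference. Its lowest, median and highest levels were 17.2, 20.1 and 24.1 CPM in dark LiTEC libraries, against 6.88, 8.54 and 10.47 CPM in dark WT libraries. Every dark LiTEC library was above every dark WT library. The log2 fold change was 1.24 ± 0.07 (SE; adjusted p = 2.51e-16).

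Zfp934, on chromosome 13 (chr13:62479827-62571199), had 17.9, 19.1 and 25.6 CPM in dark LiTEC libraries, against 10.8, 12.6 and 14.7 CPM in dark WT libraries, again as lowest, median and highest. Zfp981, on chromosome 4 (chr4:146502027-146539395), had 121, 148 and 164 CPM in dark LiTEC libraries, against 55.3, 99.6 and 113 CPM in dark WT libraries. In both genes the lines did not overlap, and the log2 fold changes were 0.64 ± 0.06 for Zfp934 (adjusted p = 7.89e-11) and 0.64 ± 0.06 for Zfp981 (adjusted p = 4.52e-11). The 55.3 CPM of Zfp981 belonged to the dark WT library with the high Gm26917 share, and the next lowest WT value was 79.3 CPM.

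Zfp948 on chromosome 17 (chr17:21567008-21588699) and Zfp953 on chromosome 13 (chr13:67339306-67360605) were the other members without overlap between the lines. How many of all genes lacked such overlap was not counted. Zfp948 had 20.5, 27.1 and 32.5 CPM in dark LiTEC libraries, against 9.34, 19.3 and 20.2 CPM in dark WT libraries (log2 fold change 0.58 ± 0.09, adjusted p = 9.41e-07). Zfp953 went the other way, with 16.7, 18.1 and 20.2 CPM in dark LiTEC libraries, against 20.8, 24.2 and 26.8 CPM in dark WT libraries (log2 fold change -0.40 ± 0.05, adjusted p = 2.71e-08). In Zfp948 and Zfp953 the nearest libraries of the lines were close. Exons of Zfp953 overlap those of Gm28044 on the same strand over 5.47% of their length.

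**Figure D2:**
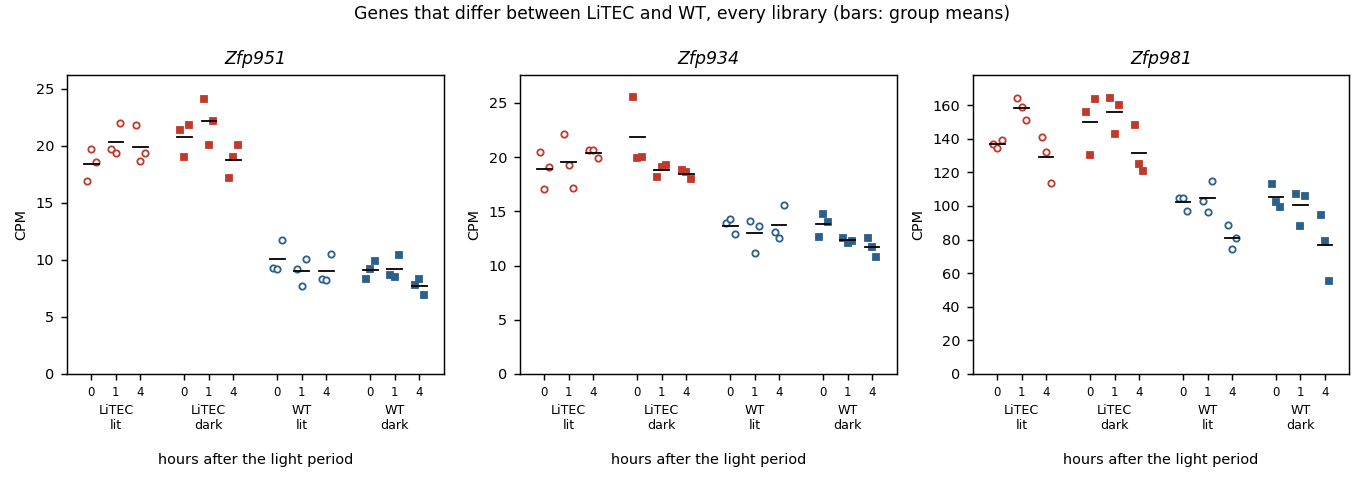
CPM of Zfp951, Zfp934 and Zfp981 in every library, by line, light and hours after the light period; bars are group means (n = 3). For Zfp951 all 18 LiTEC libraries lie at or above 16.96 CPM and all 18 WT libraries at or below 11.7 CPM.

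The other 17 members called higher in dark LiTEC cells overlapped between the lines. They were, on chromosome 4, Zfp992 (log2 fold change 0.47), Zfp978 (0.39), Zfp986 (0.38), Zfp989 (0.38), Zfp991 (0.34), Zfp982 (0.31), Zfp988 (0.30), Zfp980 (0.26) and Zfp987 (0.24). On chromosome 7 they were Zfp977 (0.59), Zfp974 (0.39), Zfp936 (0.39), the pseudogene Zfp939 (0.37), Zfp941 (0.16) and Zfp975 (0.11), and on chromosome 8 Zfp963 (0.47) and Zfp964 (0.42). The lower members beside Zfp953 were Zfp952 (-0.31), Zfp940 (-0.27), the retrovirus repressor Zfp932 (-0.18), Zfp945 (-0.17) and Zfp979 (-0.16), which overlapped too. All 27 differences had one direction in batch 1 and batch 2, but the calls were made from these same libraries. The calls of Zfp941, Zfp975 and Zfp979 were lost in 12, 8 and 1 of the 18 fits that each left out 1 library.

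Among these, Zfp977 had 18.4, 25.3 and 32.04 CPM in dark LiTEC libraries, against 11.7, 16.0 and 22.1 CPM in dark WT libraries. Zfp936 had 114, 138 and 171 CPM in dark LiTEC libraries, against 65.5, 106 and 157 CPM in dark WT libraries. The lines overlapped widely in Zfp936, where replicates of a group also differed: in dark cells replicate 2 was the lowest of its group in both lines at 0 and 1 h. Zfp963 had 2.78, 3.60 and 3.97 CPM in dark LiTEC libraries, against 1.83, 2.73 and 3.42 CPM in dark WT libraries, and 40.8% of its exon length overlaps Gm20422 on the same strand, so its counts may be shared.

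The lit libraries gave a like picture for the strongest genes, from different libraries of the same cells. In lit cells 16 members were higher and 13 lower in LiTEC than in WT cells, 51.8% of the 56, against 43.4% of all genes (22.2% higher and 21.2% lower). Of the higher members, 15 were called in both lit and dark cells, which is 93.8% of the lit and 71.4% of the dark list. All 6 members called lower in dark cells were also called lower in lit cells, where they made up 46.2% of the list. The sharing of calls was not counted over all genes, so these shares have no background beside them. All 29 lit differences had one direction in both batches, from which the calls were also made.

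Zfp951 had 16.96, 19.4 and 22.01 CPM in lit LiTEC libraries, against 7.73, 9.23 and 11.7 CPM in lit WT libraries (log2 fold change 1.06 ± 0.07, adjusted p = 1.45e-14). Zfp934 had 17.1, 19.9 and 22.1 CPM in lit LiTEC libraries, against 11.2, 13.7 and 15.5 CPM in lit WT libraries (0.54 ± 0.06, adjusted p = 3.59e-09). These were the called members whose lit libraries did not overlap between the lines. As in dark cells, overlap was not counted over all genes. Zfp981 had 114, 139 and 164 CPM in lit LiTEC libraries, against 74.1, 96.8 and 115 CPM in lit WT libraries, and the lines overlapped by a single pair of libraries (log2 fold change 0.56 ± 0.06, adjusted p = 1.11e-09).

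The other higher members in lit cells were Zfp977 (0.61), Zfp964 (0.53), Zfp963 (0.45), Zfp948 (0.43), Zfp992 (0.35), Zfp939 (0.33), Zfp936 (0.31), Zfp989 (0.31), Zfp978 (0.30), Zfp988 (0.30), Zfp991 (0.24), Zfp954 (0.21) and Zfp982 (0.17), as log2 fold changes of LiTEC over WT. The lower members were Zfp972 (-0.45), Zfp993 (-0.38), Zfp953 (-0.34), Zfp940 (-0.34), Zfp943 (-0.26), Zfp932 (-0.25), Zfp971 (-0.24), Zfp994 (-0.23), Zfp952 (-0.21), Zfp942 (-0.20), Zfp984 (-0.19), Zfp979 (-0.18) and Zfp945 (-0.13). Zfp972, in whose annotated translation neither the KRAB nor the finger pattern was found, had 2.08, 2.62 and 3.21 CPM in lit LiTEC libraries, against 2.80, 3.65 and 4.43 CPM in lit WT libraries, with overlap. Without that lit LiTEC library of replicate 1 at 0 h, 17 members were higher and 7 lower (42.9%, against 41.6% of all genes), so that library moved the lower count by more than 1.5 times. The calls of Zfp994, Zfp993, Zfp945, Zfp971, Zfp943, Zfp982 and Zfp942 were lost in 14, 11, 10, 9, 7, 7 and 2 of the 18 fits that left out 1 library.

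Zfp932, on chromosome 5 (chr5:109996521-110010411), is the member with a known role in repressing endogenous retroviruses, together with its near copy Gm15446, which holds 34.9% of its 50-base stretches. Zfp932 had 18.2, 20.9 and 24.1 CPM in dark LiTEC libraries, against 20.2, 23.8 and 26.3 CPM in dark WT libraries (log2 fold change -0.18 ± 0.06, adjusted p = 0.00813). In lit LiTEC libraries it had 15.9, 20.8 and 23.3 CPM, against 22.7, 24.4 and 27.3 CPM in lit WT libraries (-0.25 ± 0.06, adjusted p = 0.000422). The lines overlapped in both, and the dark difference was -0.35 in batch 1 and -0.08 in batch 2. Gm15446 had a log2 fold change of -0.01 in dark cells (adjusted p = 0.952) and -0.22 in lit cells (adjusted p = 0.0134), so the pair was lower together in lit LiTEC cells.

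On chromosome 4, 10 of 16 members were higher and 1 lower in dark LiTEC cells, with a median log2 fold change of 0.28. Of the 41 other tested genes of the same window, 22 were higher and 0 lower. Over all tested genes 23.9% were higher and 23.7% lower in dark cells. On chromosome 7, 6 of 9 members were higher and 1 lower (median 0.16), on chromosome 17, 1 of 13 was higher and 2 lower (median -0.05), and on chromosome 2 none of the 5 tested members was called by edgeR's test. In lit cells chromosome 4 had 7 higher and 3 lower members (median 0.13), and the other genes of the window 12 higher and 2 lower. The shares over all genes were 22.2% higher and 21.2% lower in lit cells. Without the dark WT replicate 3 at 4 h, chromosome 4 had 10 higher and 3 lower members in dark cells (81.2%, against 47% of all genes, median 0.22). The 3 chromosome 4 members that share at most 20% of their 50-base stretches had dark log2 fold changes of -0.05 for Zfp933, 0.31 for Zfp982 and -0.01 for Zfp985, and Zfp982 was the one called.

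Set beside other zinc finger genes, 81 of 317 tested Zfp genes with other numbers were higher and 84 lower in dark LiTEC cells (52.1%), and of the 26 tested genes numbered Zfp800 to Zfp899, 14 were higher and 6 lower (76.9%), against 47.6% of all genes. A list of KRAB cofactors and chromatin regulators, which also holds a few zinc finger genes that are no members, had 46 tested genes. Of these, 8 were higher and 22 lower in dark LiTEC cells (65.2%, against 47.6% of all genes), and 10 were higher and 20 lower in lit LiTEC cells (65.2%, against 43.4%). The zinc finger genes Zfp42, Rex2 and Zfp809 were among the 8 higher in dark cells, where Rex2 is also a gene of the chromosome 4 window, and Zfp57 was among the 22 lower. Trim28, which encodes the corepressor bound by the KRAB box, had a dark log2 fold change of -0.26 ± 0.06 (adjusted p = 0.00121) and was not called in lit cells. The heterochromatin protein genes Cbx1 (-0.31) and Cbx3 (-0.42), the histone deacetylase gene Hdac2 (-0.33), the remodeller gene Chd3 (-0.62) and Atf7ip (-0.28), whose product binds SETDB1, were lower as well. Setdb1 itself was not called by edgeR's test in dark cells. Nor was Cbx5 (0.05), a further heterochromatin protein gene, which was called higher in lit LiTEC cells (0.15). Gatad2a (0.25), a subunit of the NuRD repressor complex, was higher in dark LiTEC cells. So were Mta1 (0.18), Rbbp7 (0.17), Trim33 (0.10) and Kdm1a (0.08).

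Markers of other cell states differed between the lines beside these genes. The summed level of the 2-cell-like list (Zscan4 genes, Zfp352, Tcstv genes and others) ran from 7.69 to 57.1 CPM in dark LiTEC libraries and from 0.54 to 5.37 CPM in dark WT libraries, with 7 of 7 tested genes higher and 1 of the 2 table entries named Duxf3 at 0 in every library. The mesendoderm list summed to between 5.40 and 9.30 CPM in dark LiTEC libraries and between 8.22 and 21.4 CPM in dark WT libraries, with 3 of 5 tested genes lower. The fibroblast list summed to between 270 and 378 CPM in dark LiTEC libraries and between 375 and 481 CPM in dark WT libraries, with 4 of 5 tested genes lower. Nearly all of this sum was Vim alone (mean over all libraries 368 CPM). The next highest means of the list were 2.3 CPM for Thy1 and 2.25 CPM for Col1a1, and Fap and S100a4 were near 0 (at most 0.282 and 0.116 CPM). The sum is therefore no measure of fibroblasts. The ranges overlapped between the lines in every list but the 2-cell-like one, by little in the mesendoderm and fibroblast lists. Over all tested genes 47.6% were called in dark cells, 23.9% higher and 23.7% lower. The remaining lists had called genes too: 5 higher and 3 lower of 9 primitive endoderm genes, 2 higher and 4 lower of 6 primed or formative cell genes, and 1 higher and 1 lower of 3 neuroectoderm genes. The part of these states in the zinc finger differences was not tested, and in bulk RNA fewer cells of a type and less RNA per cell cannot be told apart.

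Right after blue light (0 h), 1 member differed between lit and dark LiTEC cells and 3 differed between lit and dark WT cells. Zfp941 fell in both lines, while Zfp949 rose and Zfp953 fell in WT cells. These were 1.79% of the 56 members in LiTEC cells, against 0.934% of all genes, and 5.36% in WT cells, against 2.86% of all genes. In Zfp941, Zfp949 and Zfp953 the 3 lit and the 3 dark libraries of each line did not overlap at 0 h. How many of all genes lacked overlap was not counted, here or in the comparisons that follow.

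Zfp941, on chromosome 7 (chr7:140807449-140822178, minus strand), encodes a KRAB protein with 9 fingers. At 0 h it had 8.90, 15.8 and 13.4 CPM in the lit LiTEC libraries of replicates 1, 2 and 3, against 20.5, 22.8 and 24.4 CPM in the dark LiTEC libraries. In WT cells it had 11.3, 12.3 and 10.1 CPM in lit libraries, against 16.9, 22.5 and 18.85 CPM in dark libraries. Each lit library was below each dark library of its line. The log2 fold change was -0.85 ± 0.13 in LiTEC cells (adjusted p = 0.000434) and -0.78 ± 0.13 in WT cells (adjusted p = 0.00017), by edgeR's quasi-likelihood test.

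Within batches, the lit minus dark difference of Zfp941 was -1.16 in batch 1 and -0.68 in batch 2 for LiTEC cells, and -0.56 in batch 1 and -0.86 in batch 2 for WT cells, on a log2 scale. The lowest library, replicate 1 of lit LiTEC cells, was the one with 16.3% of its counts on Gm26917, and without it the LiTEC value was -0.68 ± 0.13 (adjusted p = 0.0133, with 0.22% of all genes called). The difference of the light effects, LiTEC minus WT, was -0.07 ± 0.18 (adjusted p = 0.983), so a difference of the lines in this response was not detected. Exons of Zfp941 overlap those of Gm45785 on the same strand over 5.32% of their length.

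At 1 h after light the level of Zfp941 was near that of dark cells. It had 24.1, 25.6 and 22.7 CPM in lit LiTEC libraries at 1 h, against 26.9, 26.8 and 28.75 CPM in dark LiTEC libraries (log2 fold change -0.18, adjusted p = 0.920). In WT cells it had 24.6, 21.96 and 23.5 CPM in lit libraries, against 21.8, 25.45 and 22.2 CPM in dark libraries (0.02, adjusted p = 1.00). At 4 h the log2 fold changes were 0.07 in LiTEC and 0.12 in WT cells, and neither was called. The lit and dark libraries overlapped at 1 h in WT cells and at 4 h in both lines, and did not overlap at 1 h in LiTEC cells.

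**Figure D3:**
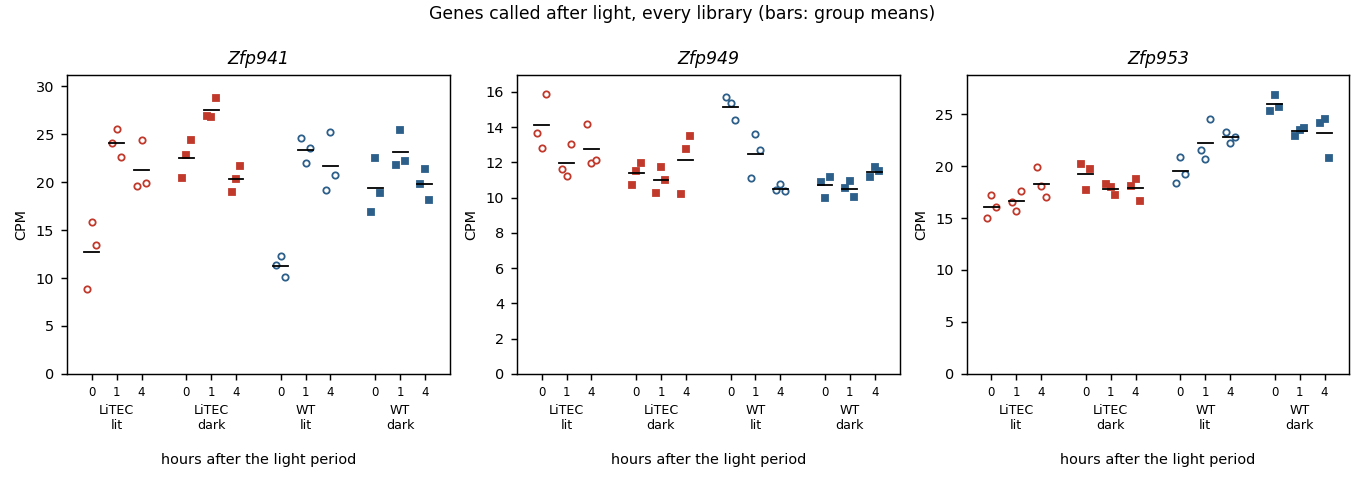
CPM of Zfp941, Zfp949 and Zfp953 in every library, by line, light and hours after the light period; bars are group means (n = 3). The lit libraries at 0 h hold the 6 lowest values of Zfp941 in the whole series, up to 15.8 CPM.

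Zfp949, on chromosome 9 (chr9:88548020-88571061), has 11 fingers and shares no 50-base stretch with another gene. At 0 h it had 13.6, 12.8 and 15.9 CPM in lit LiTEC libraries, against 10.7, 11.5 and 11.96 CPM in dark LiTEC libraries. In WT cells it had 15.7, 15.3 and 14.4 CPM in lit libraries, against 10.9, 9.998 and 11.2 CPM in dark libraries. The lit libraries were above the dark ones in both lines, and the call was made in WT cells (log2 fold change 0.51 ± 0.10, adjusted p = 0.00277) and not in LiTEC cells (0.31 ± 0.10, adjusted p = 0.183). The difference of the effects was -0.19 ± 0.15 and was not called (adjusted p = 0.886).

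Zfp953, which was already lower in LiTEC than in WT cells, had 15.05, 17.2 and 16.1 CPM in lit LiTEC libraries at 0 h, against 20.2, 17.7 and 19.7 CPM in dark LiTEC libraries. In WT cells it had 18.3, 20.9 and 19.3 CPM in lit libraries, against 25.3, 26.8 and 25.65 CPM in dark libraries. Again lit and dark libraries did not overlap in either line, and the fall was called in WT cells (log2 fold change -0.41 ± 0.08, adjusted p = 0.00277) and not in LiTEC cells (-0.26 ± 0.09, adjusted p = 0.198). The difference of the effects was 0.15 ± 0.12 (adjusted p = 0.887). The calls of Zfp941, Zfp949 and Zfp953 at 0 h held in every fit that left out 1 library.

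No other member was called at 0 h. Uncalled values reached -0.65 ± 0.19 for Zfp986 in LiTEC cells (adjusted p = 0.102) and -0.59 ± 0.24 for Zfp964 in WT cells (adjusted p = 0.234), with larger standard errors than those of the called genes. The median lit minus dark log2 fold change at 0 h was -0.12 in LiTEC cells, with 41 of 56 members negative, against 0.00 over all genes, and -0.02 in WT cells, with 31 of 56 negative, against -0.01 over all genes. On chromosome 4 the values were negative for 16 of 16 members in LiTEC cells (median -0.18) and for 13 of 16 in WT cells (median -0.08), and none was called by edgeR's test (11 of the 56 members in LiTEC cells and 9 in WT cells had an unadjusted p below 0.05). Without replicate 1 of lit LiTEC cells the LiTEC medians were -0.07 over the members and -0.13 on chromosome 4, where 16 of 16 stayed negative. The 56 values come from the same 6 libraries of a line, so their common sign is a single observation.

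**Figure D4:**
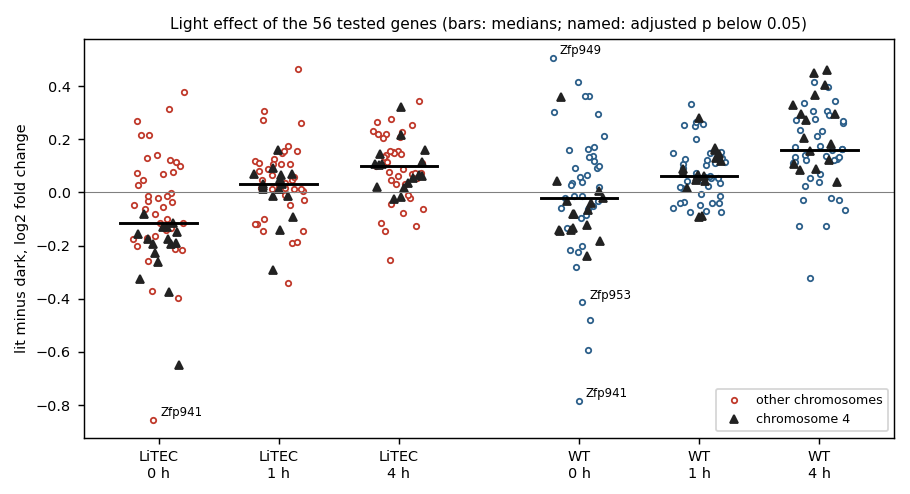
Lit minus dark log2 fold change of the 56 tested members at 0, 1 and 4 h in LiTEC cells (left) and WT cells (right); triangles are members on chromosome 4, bars are medians and names mark adjusted p below 0.05. The named genes are Zfp941 in LiTEC cells and Zfp949, Zfp953 and Zfp941 in WT cells, all at 0 h.

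At 1 and 4 h after light 0 members were called in either line by edgeR's test. The background was 0.115% (LiTEC, 1 h), 0.286% (WT, 1 h), 0.0110% (LiTEC, 4 h) and 0.00% (WT, 4 h) of all genes, and DESeq2 called 0 members in all of these. Unadjusted p was below 0.05 for 5, 1, 3 and 13 members in that order. The lowest adjusted p at 1 h in LiTEC cells was that of Zfp954, which had 9.085, 8.62 and 9.47 CPM in lit libraries, against 5.48, 6.515 and 7.79 CPM in dark libraries (log2 fold change 0.47 ± 0.12, adjusted p = 0.176). The libraries did not overlap, yet the difference did not pass the adjustment.

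At 4 h the median lit minus dark log2 fold change was 0.10 in LiTEC cells and 0.16 in WT cells, against 0.01 and -0.01 over all genes, and in WT cells 16 of 16 members on chromosome 4 were positive (median 0.24). Without replicate 3 of dark WT cells the WT medians were 0.03 over the members and 0.03 on chromosome 4, so that library decided the value. Over all 3 times the difference of light effects between LiTEC and WT cells was called for 0 members by edgeR's test (1, 2 and 0 with an unadjusted p below 0.05 at 0, 1 and 4 h, DESeq2 0), against 0.0220%, 0.00% and 0.00% of all genes.

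In dark cells, which received no light, the members also changed with time. Between 0 and 1 h 0 were called by edgeR's test (7 with an unadjusted p below 0.05; 1.31% of all genes called), and DESeq2 called 1, Zfp941, with an edgeR log2 fold change of 0.27 ± 0.08 (adjusted p = 0.106). By 4 h, over both lines, 16 members had fallen and 1 had risen, 30.4% of the 56, against 15.5% of all genes (7.65% lower and 7.82% higher). Of the 16 that fell, 12 were on chromosome 4, where all 16 members had negative values (median log2 fold change -0.34, against -0.01 over all genes). On the other chromosomes 4 of 40 tested members fell.

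Zfp990, the most abundant member, had 393, 416 and 407.5 CPM in dark LiTEC libraries at 4 h, against 451, 518 and 520 CPM at 0 h. In dark WT libraries it had 410, 435 and 214 CPM at 4 h, against 543, 570 and 536 CPM at 0 h. Every 4 h library was below every 0 h library over both lines (log2 fold change -0.46 ± 0.10, adjusted p = 0.00133). Zfp980 had 118, 109 and 103 CPM in dark LiTEC libraries at 4 h, against 127, 122 and 131 CPM at 0 h, and 95.1, 85.1 and 45.4 CPM in dark WT libraries at 4 h, against 130, 118.5 and 121 CPM at 0 h. Here too the times did not overlap over both lines, where 118 CPM was the highest at 4 h and the lowest at 0 h was barely above it (-0.46 ± 0.09, adjusted p = 0.000434).

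Zfp982 and Zfp985 are the called chromosome 4 members that share little sequence with other genes. Zfp982 had 45.9, 45.0 and 45.6 CPM in dark LiTEC libraries at 4 h, against 58.4, 53.4 and 61.9 CPM at 0 h, and 38.6, 37.9 and 24.5 CPM in dark WT libraries at 4 h, against 48.7, 45.9 and 53.0 CPM at 0 h (-0.44 ± 0.08, adjusted p = 0.000183). Zfp985 had 101, 103 and 112 CPM in dark LiTEC libraries at 4 h, against 112, 105.5 and 133 CPM at 0 h, and 105, 99.1 and 66.1 CPM in dark WT libraries at 4 h, against 137, 129.5 and 137.5 CPM at 0 h (-0.36 ± 0.08, adjusted p = 0.00163). Within a line the 4 h libraries of Zfp982 were below its 0 h libraries, and those of Zfp985 were so in WT cells.

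The other chromosome 4 members that fell were Zfp986 (-0.64), Zfp987 (-0.41), Zfp988 (-0.40), Zfp978 (-0.34), Zfp984 (-0.34), Zfp981 (-0.33), Zfp992 (-0.32) and Zfp979 (-0.30), as log2 fold changes of 4 h over 0 h. On other chromosomes Zfp936 (-0.46), Zfp948 (-0.32), Zfp934 (-0.24) and Zfp961 (-0.19) fell and Zfp954 (0.26) rose. Zfp954, whose dark 4 h libraries ran from 7.73 to 11.6 CPM, against 7.18 to 9.61 CPM at 0 h, lost its call in 6 of the 12 fits that left out 1 library, one of them without replicate 3 of dark WT cells. Zfp948, Zfp934 and Zfp961 lost theirs in 10, 6 and 1 of these fits. Opposite-strand exons of Cyp4f18 overlap 4.18% of those of Zfp961.

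Without the dark WT replicate 3 at 4 h, 14 members fell and 0 rose, with 12 of them on chromosome 4 (median -0.26), against 12.9% of all genes called. The fall of Zfp990 was then -0.32 ± 0.05 (adjusted p = 0.000159) and that of Zfp980 -0.33 ± 0.05 (adjusted p = 4.52e-05). Of the 41 other tested genes of the window, 10 fell and 0 rose over both lines with all libraries, against 7.65% of all genes lower and 7.82% higher. Rex2 (-0.44), Zfp534 (-0.45), Zfp600 (-0.38) and Gm13212 (-0.23) carry the 15 promoter letters. Vmn2r-ps20 (-0.52), Gm13231 (-0.40), Gm13166 (-0.39), Gm13034 (-0.27), Gm13147 (-0.27) and Gm21411 (-0.25) were not among the matches. Nor were the members Zfp990, Zfp978, Zfp986 and Zfp992, which fell too. Only 10 members and 9 other genes of this stretch of chromosome 4 had a promoter window. Some of the genes without a match were therefore never searched. A link of the letters to the fall was not tested. Of the list of cofactors and chromatin regulators, 8 of 46 tested genes were called over both lines with all libraries, against 15.5% of all genes. Hells (-0.26), Resf1 (-0.30), Uhrf1 (-0.20), Sumo2 (-0.29), Atf7ip (-0.24), Smarcad1 (-0.13) and Rex2 fell, and Suv39h1 (0.42) rose. The naive marker sum was 2910 to 4380 CPM at 4 h, against 2900 to 4230 CPM at 0 h in dark libraries.

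**Figure D5:**
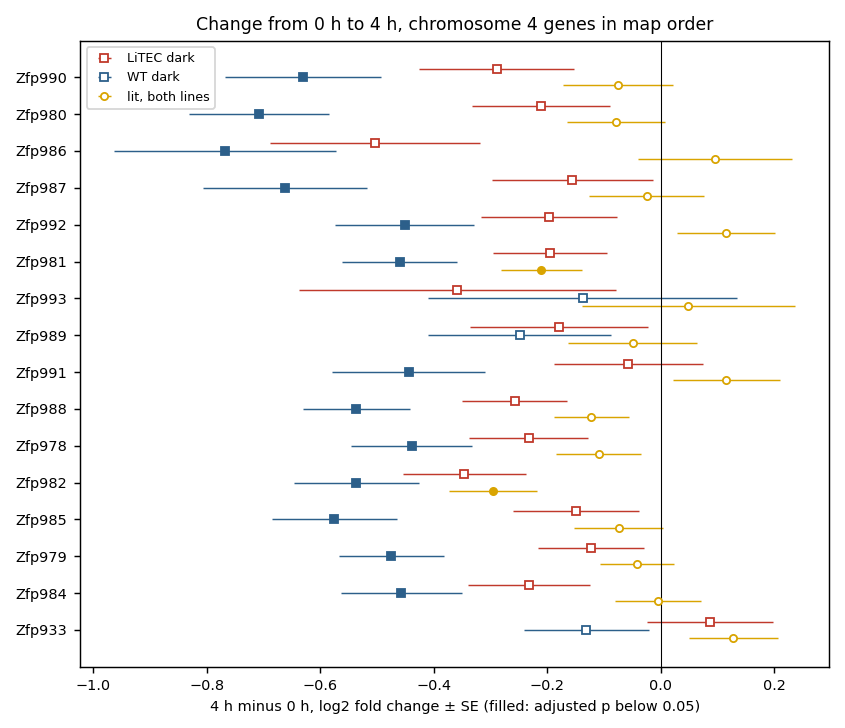
Change over time, 4 h minus 0 h, of the 16 members on chromosome 4 in map order, as log2 fold change ± SE in dark LiTEC cells, dark WT cells and lit cells of both lines; filled points have an adjusted p below 0.05. All 16 WT values lie below 0 and 13 are filled, while 2 of the lit values, Zfp981 and Zfp982, are.

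The lines were then taken apart, a comparison added after the data were seen. In dark WT cells alone 16 members fell between 0 and 4 h and 0 rose (28.6%, against 8.31% of all genes, 3.96% lower and 4.35% higher). Of these, 13 were on chromosome 4, whose members had a median of -0.47. In each of the 16 the WT libraries of the 2 times did not overlap, but overlap was not counted over all genes. The 3 others were Zfp936 (-0.69), Zfp975 (-0.29) and Zfp961 (-0.25), and the chromosome 4 members ran from Zfp986 (-0.77), Zfp980 (-0.71), Zfp987 (-0.66), Zfp990 (-0.63) and Zfp985 (-0.58) to Zfp978 (-0.44) and Zfp991 (-0.44), with Zfp988 (-0.54), Zfp982 (-0.54), Zfp979 (-0.47), Zfp981 (-0.46), Zfp984 (-0.46) and Zfp992 (-0.45) between. Without the dark WT replicate 3 at 4 h, 7 remained called (12.5%, against 3.46% of all genes): Zfp979, Zfp980, Zfp982, Zfp985, Zfp987, Zfp988 and Zfp990. Without replicate 1 of dark WT cells at 0 h 9 members were called, and without replicate 3 at 0 h 10.

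In dark LiTEC cells alone 0 members were called between 0 and 4 h by edgeR's test (9 with an unadjusted p below 0.05; 2.18% of all genes called), and DESeq2 called 1, Zfp982. On chromosome 4 the LiTEC values were negative for 15 of 16 members (median -0.20). Whether the lines differed was tested directly: the difference of the changes, LiTEC minus WT, was called for 0 members by edgeR's test (8 with an unadjusted p below 0.05; DESeq2 0; 0.00% of all genes called), with a median of 0.20. Without the dark WT replicate 3 at 4 h that median was 0.06. A difference of the lines over time was therefore not shown.

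In lit cells, also a comparison added after the data were seen, 6 members were higher and 5 lower at 4 h than at 0 h over both lines, 19.6% of the 56, against 13.5% of all genes (7.04% higher and 6.42% lower). Zfp941 led, with 19.1, 20.3 and 25.2 CPM as lowest, median and highest in lit libraries at 4 h, against 8.90, 11.8 and 15.8 CPM at 0 h, without overlap (log2 fold change 0.86 ± 0.09, adjusted p = 3.32e-08; 0.77 ± 0.08 without the lit LiTEC replicate 1 at 0 h). Zfp937 (0.51), Zfp945 (0.24), Zfp953 (0.21), Zfp975 (0.17) and Zfp976 (0.16) rose too. Zfp959 (-0.43), Zfp948 (-0.39), Zfp949 (-0.34), Zfp982 (-0.30) and Zfp981 (-0.21) fell. These contrasts share the lit 0 h libraries with the light comparison above, so Zfp941, Zfp949 and Zfp953 are not a second observation here.

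Zfp959, on chromosome 17 (chr17:55892093-55898928), had 6.14, 6.98 and 7.28 CPM in lit libraries at 4 h, against 8.40, 9.40 and 10.3 CPM at 0 h, and these did not overlap (adjusted p = 0.00538). Zfp937, on chromosome 2 (chr2:150218073-150240725), had 6.95, 8.22 and 9.66 CPM at 4 h, against 4.96, 5.96 and 7.32 CPM at 0 h, with a slight overlap (adjusted p = 0.00646). Of the 16 members that fell in dark cells, Zfp948, Zfp981 and Zfp982 also fell in lit cells, which is 18.8% of the dark list and 60% of the 5 in the lit list. This sharing too was not counted over all genes. On chromosome 4, 2 of 16 fell in lit cells (median -0.05), and the difference between the lit and dark changes was not tested. Without replicate 1 of lit WT cells at 0 h 6 members were called, and without replicate 1 of lit LiTEC cells at 4 h 7. Zfp981, Zfp976, Zfp975, Zfp953 and Zfp948 lost their calls in 10, 8, 7, 3 and 1 of the 12 fits that left out 1 library.

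Zfp951, which differed most between the lines, was not called for light or for time. Its lit minus dark log2 fold changes at 0, 1 and 4 h were -0.18, -0.12 and 0.09 in LiTEC cells and 0.14, -0.04 and 0.23 in WT cells, with standard errors of 0.11 to 0.13. Its change between 0 and 4 h in dark cells was -0.20 ± 0.09 (adjusted p = 0.120).

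In all, 42 of the 56 tested members were called in at least 1 comparison, counting those added after the data were seen. The 14 others were Zfp930 and Zfp958 on chromosome 8, Zfp931 and Zfp970 on chromosome 2, Zfp933 on chromosome 4, Zfp938 on chromosome 10, Zfp950 on chromosome 19, Zfp956 on chromosome 6, and Zfp944, Zfp946, Zfp947, Zfp960, Zfp983 and Zfp995 on chromosome 17. Their mean levels ran from 2.19 CPM for Zfp983 to 57.1 CPM for Zfp930. Zfp933 lies at the far end of the chromosome 4 window and shares 1.0541% of its 50-base stretches with other genes, and its level was 3.51 CPM per kb, below the chromosome 4 median of 28.5.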

How the data were processed

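The labels' protocols name TRIzol extraction and the TruSeq Stranded mRNA kit. The authors deposited raw read counts per gene. FastQC and featureCounts, and the build mm10 (GRCm38), are named per the submitters' processing notes. Not given in the sources used here are the aligner, the strand setting and how multi-mapping reads were treated, so counts of overlapping and near-identical genes are uncertain.

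Genes passing edgeR's filterByExpr on the 12 groups (minimum count 10; 18193 of 54842 genes, with at least 99.8792% of the counts of every library) were fitted over all 36 libraries with 12 group means and a batch term (23 residual degrees of freedom), TMM scaling and quasi-likelihood tests (R 4.3.3, edgeR 4.0.16 and limma 3.58.1). The Benjamini-Hochberg adjustment was made over all tested genes, and a called gene has an adjusted p below 0.05. The script was tested on simulated data. There were 13 planned comparisons and 4 added after the data were seen. Every member called in any comparison is named, with the 5 highest means and the untested members. The members and lists were chosen with earlier results of these data known. Alternatives were DESeq2 1.42.0, RLE size factors, a replicate block, a fit with no batch term, a fit of batch 2 alone, a minimum mean of 5 CPM, omission of the expression filter, and omission of each library in turn. Libraries were checked for duplicates: the lowest chi-square per gene between libraries was 4.07, and none was merged. Coordinates are 1-based, from GENCODE M21 on GRCm38, matched by identifier for 54495 genes and all 64 members; promoters are from RefSeq (GRCm38.p6).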

Additional observations from a re-analysis of the deposited data

How the results depend on the processing

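No direction was reversed in the 104 member calls. All 104 held under a replicate block, RLE size factors and DESeq2; 38 were lost with batch 2 alone, 18 without a batch term, 10 without an expression filter, 1 of those tested at a mean of at least 5 CPM, and 28 in at least 1 fit that left out a library. Batch 2 alone called 17 members for LiTEC minus WT in lit cells, 0 for light at 0 h in LiTEC cells and 1 in WT cells (Zfp941), 9 for dark WT cells at 4 h against 0 h, and 4 for lit cells at 4 h against 0 h; it has fewer libraries. Without an expression filter 3 members were called for light at 0 h in LiTEC cells, 6 for light at 4 h in WT cells, 2 for dark LiTEC cells at 4 h against 0 h (Zfp982, Zfp990) and 4 for the difference of the lines in that change; the cause was not tested. A replicate block gave 6 for light at 0 h in WT cells (with Zfp945, Zfp952 and Zfp970), 1 for dark cells at 1 h against 0 h (Zfp941) and 1 for dark LiTEC cells at 4 h against 0 h (Zfp982), and DESeq2 gave 1 and 1 for these last comparisons. Same-numbered libraries shared deviations in 197 of 198 pairs above a correlation of 0.1 (lowest 0.0971, mean 0.406). Each of the 36 libraries correlated best with its own number, and number 1 is batch 1 by the labels. Within batch 2, replicate 2 libraries of different groups had a mean correlation of 0.251 (lowest 0.144). This last value is a hint from the data and not from the design.

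Leaving out 1 library in turn gave 25 to 33 calls for LiTEC minus WT in dark cells, 23 to 29 in lit cells, 1 to 1 for light at 0 h in LiTEC cells, 3 to 4 in WT cells, 14 to 23 for dark cells at 4 h against 0 h, 7 to 19 in dark WT cells, 6 to 11 in lit cells, and 0 in the other comparisons.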
